A study of Homo sapiens with 12 samples.

Results

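The desmosome genes described here were DSG1, DSG2, DSG3, DSC1, DSC2, DSC3, JUP, PKP1, PKP3 and DSP. They were found by symbol in the count matrices of 3 lines of head and neck squamous cell carcinoma (HNSCC), 10 of 33514 gene symbols, and 9 of the 10 passed the low-count filter. The established lines SCC1 (UM-SCC-1), SCC25 and SCC6 (UM-SCC-6) received cetuximab at 100 nM or PBS (untreated controls) once a day for 5 days and were profiled by single-cell RNA-seq. Cetuximab is a therapeutic antibody against the receptor EGFR, which it keeps from binding its ligands. Each of the 6 groups (SCC1, SCC6 and SCC25, PBS or cetuximab) held 2 replicates, which gave 12 samples with 961 to 2854 cells and 57057402 to 112170073 unique molecular identifiers (UMIs) per sample.

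Desmosomes are the junctions that hold neighbouring epithelial cells together. Desmogleins (DSG) and desmocollins (DSC) are calcium-dependent cadherins that bind across the gap between cells. Inside the cell their tails bind plakoglobin (JUP) and the plakophilins (PKP), and desmoplakin (DSP) links these to the keratin filaments. DSG2 and DSC2 are the isoforms found in most epithelia. In stratified squamous epithelium DSG3 and DSC3 mark the basal layers, and DSG1 and DSC1 the upper, differentiated layers.

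The lines differed in which desmosome genes they used. SCC6 cells held almost no DSG3 and PKP1 transcript and less DSC3 than SCC1 or SCC25, while DSG2, DSC2, JUP, PKP3 and DSP were present in every sample. With cetuximab no member passed the test in any line when samples were compared as independent replicates. Of all 17897 genes tested, 0.0168% passed in SCC1, 3.81% in SCC6 and 0.0% in SCC25. When same-numbered replicates were treated as pairs, DSC2, DSC3 and DSP were higher and PKP3 lower in treated SCC6, where 20.1% of all genes passed. Levels are given as CPM, the UMIs of a gene per 1000000 UMIs summed over the cells of a sample. A UMI counts a transcript once at its 3′ end, so CPM does not rise with transcript length, but capture can differ between genes. With summed counts, fewer cells that use a gene and less RNA per cell cannot be told apart.

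The lines were first checked against epithelial markers. All 8 squamous epithelial markers were detected in all 12 samples, at a summed level of 1004 to 13914 CPM. SCC6 stood apart for the basal keratins: KRT5 was at 0.967 to 4.57 CPM and KRT14 at 0.379 to 2.58 CPM in the 4 SCC6 samples, against at least 370 CPM for KRT5 and at least 1322 CPM for KRT14 in the SCC1 and SCC25 samples. The 6 fibroblast markers summed to 0.947 and 2.98 CPM in untreated SCC6 and 27.8 and 23.1 CPM in treated SCC6. In SCC1 they summed to 8.61 and 7.51 CPM with PBS and 17.6 and 18.4 CPM with cetuximab. In SCC25 they summed to 19.6 and 37.7 CPM with PBS and 43.5 and 80.3 CPM with cetuximab. The 6 leukocyte and endothelial markers summed to 14.1 CPM at most, and PTPRC, the pan-leukocyte gene, was at 0.0669 CPM at most. Samples shared 1 to 13 cell barcodes with another sample.

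**Figure D1:**
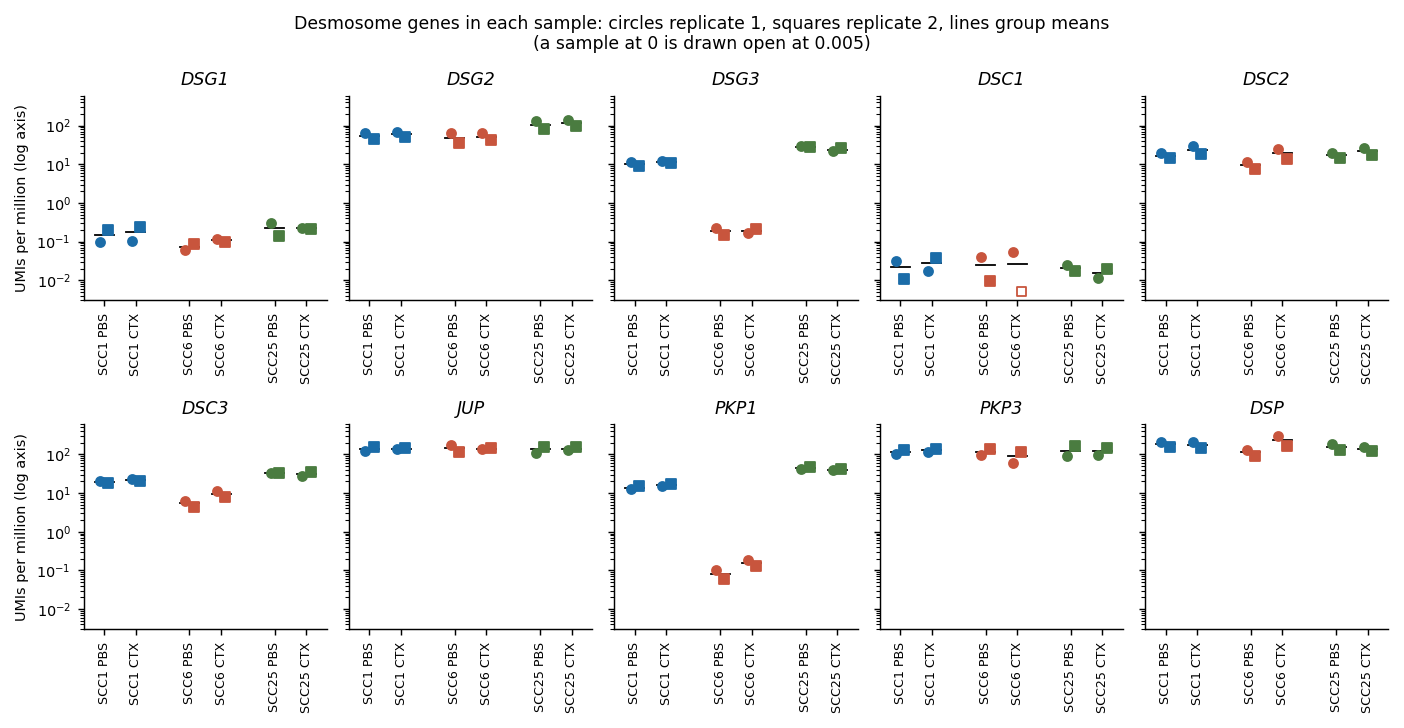
Level of each of the 10 desmosome genes in the 12 samples, in CPM on a log axis, with circles for replicate 1, squares for replicate 2 and lines for group means. DSG3 and PKP1 lie below 0.3 CPM in the 4 SCC6 samples and above 9 CPM in the 8 SCC1 and SCC25 samples, whereas DSG1 and DSC1 lie below 0.3 CPM in all 12.

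Of the members, 6 stand side by side on chromosome 18 (GRCh38.p14, RefSeq), in the order DSC3, DSC2, DSC1, DSG1, DSG3 and DSG2, over 559.6 kb from base 30989365 to base 31549008. DSG3 (chr18:31447741-31478702) ends 19.5 kb before DSG2 (chr18:31498177-31549008) begins. The others are PKP1 on chromosome 1 (chr1:201283506-201332989), DSP on chromosome 6, PKP3 on chromosome 11 and JUP on chromosome 17. RefSeq windows of 250 bases before to 50 bases after the gene start were matched by symbol for 9 of the 10 members. The windows of DSG3, PKP1 and DSC3, the members that differed between all 3 lines, are shown with that of DSG2, the neighbour of DSG3, which was high in each line. They run 5′ to 3′ on the strand of the gene, and capitals mark CG pairs.

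The DSG3 window is chr18:31447491-31447790 (plus strand), the PKP1 window chr1:201283256-201283555 (plus strand), the DSC3 window chr18:31042693-31042992 (minus strand) and the DSG2 window chr18:31497927-31498226 (plus strand).
DSG3: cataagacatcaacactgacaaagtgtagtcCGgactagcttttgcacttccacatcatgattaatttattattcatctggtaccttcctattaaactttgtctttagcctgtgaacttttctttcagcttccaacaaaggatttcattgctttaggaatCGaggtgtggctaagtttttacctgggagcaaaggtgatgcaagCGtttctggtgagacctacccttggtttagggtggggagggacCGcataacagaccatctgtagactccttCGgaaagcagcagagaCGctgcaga
PKP1: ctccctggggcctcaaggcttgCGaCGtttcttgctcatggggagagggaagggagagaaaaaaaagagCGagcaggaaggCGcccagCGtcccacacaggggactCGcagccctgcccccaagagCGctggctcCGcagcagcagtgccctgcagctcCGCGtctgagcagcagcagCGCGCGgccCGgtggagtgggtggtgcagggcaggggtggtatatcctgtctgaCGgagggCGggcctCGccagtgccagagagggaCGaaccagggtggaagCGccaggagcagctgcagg
DSC3: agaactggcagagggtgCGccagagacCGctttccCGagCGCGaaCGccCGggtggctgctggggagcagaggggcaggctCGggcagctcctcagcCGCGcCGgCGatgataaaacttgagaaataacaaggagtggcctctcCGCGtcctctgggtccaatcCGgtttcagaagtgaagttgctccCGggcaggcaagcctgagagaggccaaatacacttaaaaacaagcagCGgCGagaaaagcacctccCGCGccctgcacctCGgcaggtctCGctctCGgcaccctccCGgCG
DSG2: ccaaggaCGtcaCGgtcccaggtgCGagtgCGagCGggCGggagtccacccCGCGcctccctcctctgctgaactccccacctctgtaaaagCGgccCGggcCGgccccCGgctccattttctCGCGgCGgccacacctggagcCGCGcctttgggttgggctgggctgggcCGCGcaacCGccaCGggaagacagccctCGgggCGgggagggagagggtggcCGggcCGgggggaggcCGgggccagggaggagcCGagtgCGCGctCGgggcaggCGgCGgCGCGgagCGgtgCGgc

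These reference windows differed in composition. DSG3 had 6 CG pairs and 44.0% G and C, PKP1 had 19 and 67.3%, DSC3 had 25 and 63.3%, and DSG2 had 36 and 76.7%. The median of all 35116 windows was 14 CG pairs, and 33.7% of them had fewer than DSG3. DSC1 with 2 CG pairs and DSG1 with 3 had the lowest counts among the members, and DSP with 37 the highest. Motifs were searched on both strands. The grainyhead motif AACCGGTT (0.134% of all windows), the AP-1 motif TGANTCA (7.71%) and TATAAA (11.5%) were in none of the 11 windows of the members. The E-box CACCTG, bound by repressors such as SNAI1 and ZEB1, was in 20.6% of all windows and in windows of DSG1, DSG2, DSC2, JUP and DSP, with 2 copies each in DSG2, JUP and DSP. None of the DSG3, PKP1 and DSC3 windows held these letters.

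Among the desmogleins, DSG2, the isoform found in most epithelia, was the most abundant. In SCC1 it was at 63.3 and 45.1 CPM with PBS and 70.2 and 49.7 CPM with cetuximab. In SCC6 it was at 63.9 and 34.9 CPM with PBS and 63.0 and 41.6 CPM with cetuximab. In SCC25 it was at 132 and 82.4 CPM with PBS and 143 and 96.5 CPM with cetuximab. All 4 SCC25 samples lay above all SCC1 and SCC6 samples, replicate 1 was the higher in each group, and the PBS and cetuximab values overlapped in every line.

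DSG3, the basal-layer desmoglein and the target of autoantibodies in pemphigus vulgaris, separated the lines. It was at 11.7 and 9.24 CPM in untreated SCC1 and at 29.2 and 28.1 CPM in untreated SCC25. In untreated SCC6 it was at 0.229 and 0.146 CPM, which rest on 23 and 15 UMIs. With cetuximab DSG3 was at 12.3 and 10.5 CPM in SCC1, 0.171 and 0.211 CPM in SCC6 and 21.7 and 25.96 CPM in SCC25. Both treated SCC25 samples lay below both untreated ones, whereas the groups overlapped in SCC1 and SCC6. The 3 lines did not overlap, with SCC25 the highest and SCC6 the lowest.

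DSG1, the desmoglein of the upper epidermal layers, was rare in every line, with 6 to 24 UMIs per sample and 0.0598 to 0.296 CPM. For DSG1 the SCC1 samples overlapped those of SCC6 and of SCC25. All SCC6 samples, at 0.118 CPM at most, lay below all SCC25 samples, at 0.143 CPM at least. DSG2 made up 83.5% ± 1.16 (SD, n = 2) of the desmoglein UMIs in untreated SCC1. In untreated SCC6 its share was 99.4% ± 0.152 and in untreated SCC25 78.1% ± 5.13. The DSG3 share was 16.2% ± 0.999, 0.386% ± 0.0415 and 21.7% ± 5.17 in the same order. Treated SCC1 had a DSG3 share of 16.1% ± 1.73, treated SCC6 of 0.387% ± 0.165 and treated SCC25 of 17.2% ± 5.67. Between same-numbered SCC25 samples the share fell from 18.1% to 13.1% and from 25.4% to 21.2%. In SCC1 and SCC6 the same-numbered samples moved in opposite directions. These shares were not tested.

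Among the desmocollins, DSC2 and DSC3 were both used and DSC1, the desmocollin of the upper layers, was at 0 to 4 UMIs per sample, which excluded it from testing. DSC3, like DSG3 a basal-layer isoform, was at 20.3 and 18.3 CPM in untreated SCC1 and 33.5 and 32.3 CPM in untreated SCC25. In untreated SCC6 it was at 6.43 and 4.35 CPM, below every SCC1 and SCC25 sample. With cetuximab DSC3 was at 22.5 and 21.1 CPM in SCC1, 11.0 and 7.81 CPM in SCC6 and 27.2 and 34.7 CPM in SCC25. Both treated SCC6 samples lay above both untreated ones, and so did the treated SCC1 samples, whereas the SCC25 groups overlapped.

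DSC2, the widely expressed desmocollin, was at 19.1 and 14.3 CPM in untreated SCC1 and 28.9 and 18.1 CPM in treated SCC1. In SCC6 it was at 11.3 and 7.68 CPM with PBS and 25.6 and 13.9 CPM with cetuximab. In SCC25 it was at 19.8 and 14.2 CPM with PBS and 26.6 and 17.6 CPM with cetuximab. DSC2 was higher with cetuximab in all 6 same-numbered pairs, and the groups were apart in SCC6 only. DSC2 made up 46.2% ± 3.21 of the desmocollin UMIs in untreated SCC1, 63.7% ± 0.187 in untreated SCC6 and 33.8% ± 4.66 in untreated SCC25. With cetuximab its share was 51.2% ± 7.16, 66.9% ± 4.11 and 41.5% ± 11.2, so that the lines kept that order of means while the spread between treated replicates was wide.

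**Figure D2:**
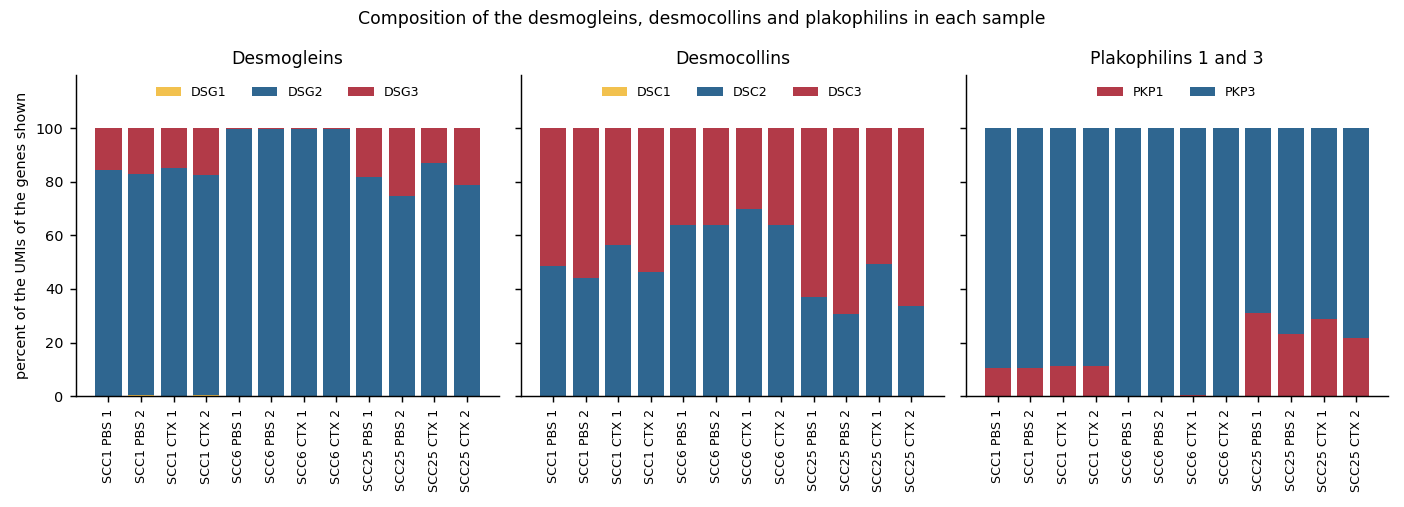
Share of each isoform among the UMIs of DSG1 to DSG3, of DSC1 to DSC3, and of PKP1 and PKP3, in percent, as stacked bars for the 12 samples. DSG2 and PKP3 fill more than 99% of the SCC6 bars, and DSC2 fills 63.5% to 69.8% of the SCC6 desmocollin bars against 30.5% to 56.2% in the other lines.

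PKP1, the plakophilin of suprabasal squamous cells that clusters desmosomal cadherins, followed the same order of lines as DSG3. Untreated SCC25 was at 41.1 and 48.5 CPM, untreated SCC1 at 12.5 and 15.2 CPM and untreated SCC6 at 0.0996 and 0.0584 CPM, the last from 10 and 6 UMIs. With cetuximab PKP1 was at 38.6 and 40.8 CPM in SCC25, 14.9 and 17.7 CPM in SCC1 and 0.184 and 0.133 CPM in SCC6. Treated SCC6 lay above untreated SCC6 and treated SCC25 below untreated SCC25, with 14 and 12 UMIs behind the treated SCC6 values.

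PKP3, the plakophilin found in most desmosomes, was at 61.8 to 161 CPM in all 12 samples and the lines overlapped. Its lowest value, 61.8 CPM, was in treated SCC6 replicate 1, against 117 CPM in treated replicate 2 and 94.5 and 142 CPM in the untreated SCC6 samples. PKP1 made up 10.6% ± 0.186 of the UMIs of both genes in untreated SCC1, 0.0732% ± 0.0455 in untreated SCC6 and 27.1% ± 5.56 in untreated SCC25. PKP2, the plakophilin of simple epithelia and heart and not among the 10 members, was at 47.2 and 30.7 CPM in untreated SCC6 and at 14.2 to 21.8 CPM in the untreated samples of the other lines.

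JUP, which binds the cadherin tails in desmosomes and adherens junctions, differed little between the lines. It was at 120 and 155 CPM in untreated SCC1, 176 and 118 CPM in untreated SCC6 and 112 and 158 CPM in untreated SCC25, and at 127 to 155 CPM in the 6 treated samples. The untreated replicates of 1 line differed by more than the treated and untreated means did.

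DSP, the keratin anchor, was at 207 and 157 CPM in untreated SCC1 and 182 and 133 CPM in untreated SCC25. In untreated SCC6 it was at 131 and 93.6 CPM. With cetuximab it was at 295 and 166 CPM in SCC6, 208 and 143 CPM in SCC1 and 152 and 119 CPM in SCC25. Both treated SCC6 samples lay above both untreated ones, and in SCC1 and SCC25 the groups overlapped. The 10 members together summed to 484 and 401 CPM in untreated SCC6, 597 and 491 CPM in treated SCC6, and 544 to 657 CPM in the 8 SCC1 and SCC25 samples.

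To compare the untreated lines, edgeR's quasi-likelihood test was run on summed counts, and p-values were adjusted over all 17897 genes tested (Benjamini-Hochberg, FDR, threshold 0.05). Fold changes used TMM scaling, which lowered every log2 difference of SCC1 against SCC6 by 0.34 relative to plain CPM and moved those of SCC1 and of SCC6 against SCC25 by -0.19 and 0.14. In SCC1 against SCC6, DSG3 was higher by 5.44 ± 0.29 (log2 fold change ± SE, FDR = 1.2e-06), PKP1 by 7.11 ± 0.35 (FDR = 7.9e-07) and DSC3 by 1.49 ± 0.26 (FDR = 0.00135). These were 3 of 9 members tested, and 40.2% of all genes passed in this comparison, so that the share of members was no higher than that of all genes. The median absolute log2 difference was 0.75 over all genes tested and 0.47 over the 9 members.

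In SCC6 against SCC25 the same 3 members passed, with DSG3 at -7.10 ± 0.31 (FDR = 4.8e-07), PKP1 at -8.99 ± 0.37 (FDR = 4.1e-07) and DSC3 at -2.46 ± 0.27 (FDR = 8e-05), on a background of 40.9%. DSG2 was at -0.95 ± 0.37 and missed the threshold (FDR = 0.062). It was called by DESeq2 (-0.97, adjusted p = 0.0344, background 43.2%) and by edgeR with no low-count filter (FDR = 0.0209, background 29.6%). The DSG2 difference hung on single samples, at -1.51 without untreated SCC6 replicate 1 and -0.54 without replicate 2. In SCC1 against SCC25, 4 of 9 members passed, all lower in SCC1, on a background of 40.8%. They were PKP1 at -1.88 ± 0.25 (FDR = 0.000302), DSG3 at -1.65 ± 0.23 (FDR = 0.00039), DSC3 at -0.97 ± 0.26 (FDR = 0.0128) and DSG2 at -1.17 ± 0.37 (FDR = 0.0273). Only 2 members passed in this comparison without untreated SCC1 replicate 1 or without replicate 2, since the calls of DSG2 and DSC3 were lost. The DSG2 call was also lost without untreated SCC25 replicate 1, at -0.86 (FDR = 0.148). DSC2, JUP, PKP3 and DSP passed in no comparison of untreated lines, with 95% intervals that reached from -1.48 to 1.27 on the log2 scale. DSG1 passed in none either. In SCC6 against SCC25 it was at -1.39 ± 0.59 (edgeR FDR = 0.0847), resting on 6 to 24 UMIs per sample. With 1 replicate term shared by the lines, DSC2 was called in SCC1 against SCC6 (0.50, edgeR FDR = 0.023, background 53.8%) and, with DSG2, in SCC6 against SCC25 (-0.71, edgeR FDR = 0.00387, background 54.4%).

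To ask how evenly these genes were spread over cells, each cell was thinned to 15000 UMIs, which left out 851 of 23914 cells as too shallow. DSG3 was then found in 13.2% to 18.2% of SCC1 cells and 27.4% to 34.5% of SCC25 cells. In SCC6 it was found in 0.154% to 0.377% of cells. PKP1 was found in 18.2% to 22.1% of SCC1 cells, 40.1% to 48.7% of SCC25 cells and 0.113% to 0.305% of SCC6 cells. PTPRC, CD3E, ALB and HBB, genes that carcinoma cells should lack, were found at the same depth in up to 0.183% of cells in SCC25 and 0.0610% in SCC6, where 3 of 4 samples had no such cell. The SCC6 shares of DSG3 and PKP1 rest on 3 to 10 cells per sample, lay above this SCC6 background in value and overlapped the highest SCC25 value. The largest SCC6 share of DSG3 rests on 10 of 2652 cells (exact binomial 95% interval 0.181% to 0.692%, counting error only). Before thinning the ranges were 35.1% to 42.9% of SCC1 cells, 52.98% to 61.96% of SCC25 cells and 0.385% to 0.786% of SCC6 cells for DSG3.

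DSC2 was found in 11.2% to 35.1% of the thinned cells of a sample, DSC3 in 5.50% to 41.4%, DSG2 in 39.8% to 85.1%, and JUP, PKP3 and DSP in 56.8% to 95.9%. DSG1 was found in at most 0.52% of cells and DSC1 in at most 0.113%. In 8 of 12 samples no cell held a DSC1 UMI after thinning. The smallest of these, untreated SCC1 replicate 1 with 0 of 1215 cells, allows a share of cells with a UMI of up to 0.247% (3 counts, counting error only). With cetuximab the share of DSC2-positive cells was higher in 6 of 6 pairs, by 7.35 percentage points on average over the lines. In an exact two-sided permutation test with labels permuted within lines (smallest possible p = 0.00926) this gave p = 0.0556, or 0.556 after adjustment over the 10 members. No other member had a smaller p, so that no share passed. Without thinning the DSC2 difference was 14.3 points (exact permutation p = 0.0185, adjusted p = 0.185).

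To ask whether cetuximab changed the desmosome genes, treated and untreated samples were compared within each line. TMM scaling lowered every log2 change in SCC6 by 0.23 relative to plain CPM, and by 0.048 in SCC1 and 0.030 in SCC25. In SCC6, where the values were furthest apart, DSP was at 0.79 ± 0.31 (edgeR FDR = 0.195), DSC2 at 0.82 ± 0.36 (FDR = 0.243), PKP1 at 0.76 ± 0.40 (FDR = 0.335), DSC3 at 0.56 ± 0.26 (FDR = 0.258) and PKP3 at -0.62 ± 0.39 (FDR = 0.420). None of the 9 members passed, on a background of 3.81% of genes. DSP and DSC2 were the 2 members with an unadjusted p under 0.05, and DESeq2 called no member in SCC6 or in any other cetuximab comparison. The median log2 change was 0.33 over the 9 members and 0.0 over all genes tested. The member at the median was DSG1 (0.33 ± 0.63), which rests on 6 to 9 UMIs per SCC6 sample. Besides PKP3, JUP (-0.29), DSG3 (-0.20) and DSG2 (-0.16) lay below 0. Without untreated SCC6 replicate 1 they were at 0.087, 0.21 and 0.395, so the direction of JUP, DSG3 and DSG2 rests on single samples. PKP3 stayed below 0 with each SCC6 sample left out in turn.

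The replicate numbers carried a shared shift, seen across all groups. DSG2, DSC2 and DSP were higher in replicate 1 than in replicate 2 in 6 of 6 groups, by 0.49 to 0.87, 0.42 to 0.88 and 0.36 to 0.83 on the log2 CPM scale. PKP3 was lower in replicate 1 in 6 of 6 groups, at -0.92 to -0.26. For DSC2 the median of this difference was 0.58, beside changes with cetuximab of 0.31 to 0.60 in the 4 SCC1 and SCC25 pairs. What the numbers stand for, such as a culture or a sequencing run, is not given in the sources used here.

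**Figure D3:**
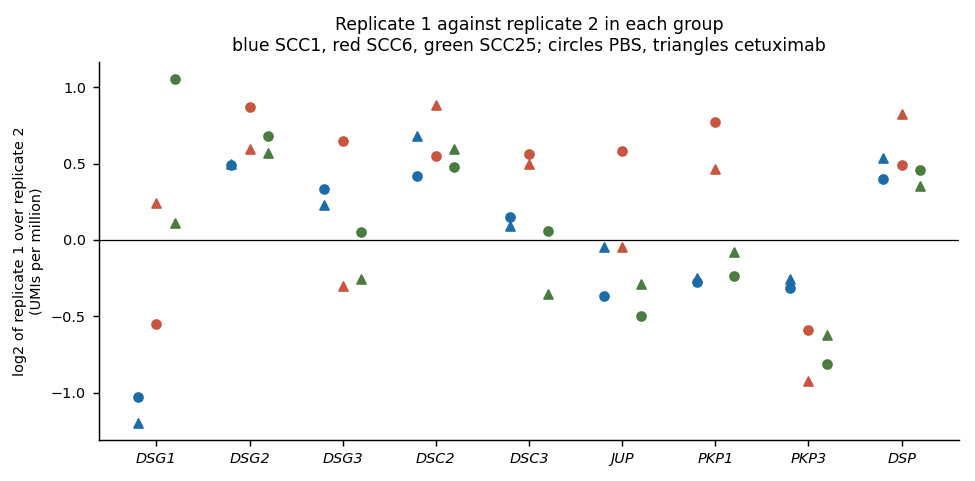
Log2 of replicate 1 over replicate 2 (CPM) for 9 desmosome genes in each of the 6 groups, with circles for PBS and triangles for cetuximab. All DSG2, DSC2 and DSP points lie above 0 and all PKP3 points below 0, whereas JUP, PKP1, DSC3, DSG3 and DSG1 lie on both sides.

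With the replicate number as a block within each line, 4 of 9 members passed in SCC6, on a background of 20.1%. DSP rose by 0.77 ± 0.12 (edgeR FDR = 0.0057), DSC2 by 0.79 ± 0.14 (FDR = 0.009) and DSC3 by 0.58 ± 0.14 (FDR = 0.0227). PKP3 was at -0.68 ± 0.15 (FDR = 0.018), a fall in both pairs. The direct pair values in CPM were 1.17 and 0.83 for DSP, 1.19 and 0.86 for DSC2, 0.78 and 0.85 for DSC3 and -0.61 and -0.28 for PKP3. A replicate term shared by the lines called DSP, DSC2 and PKP3 in SCC6 (background 13.8%) and DSC2 across the lines (background 11.6%). The fold changes hardly differed from those without the block, and their SE fell to 0.12 to 0.15 from 0.26 to 0.39. Without the block, leaving out 1 SCC6 sample at a time moved the log2 change between 0.34 and 1.13 for DSP, 0.33 and 1.18 for DSC2, 0.26 and 0.93 for DSC3, 0.37 and 1.23 for PKP1 and -1.18 and -0.22 for PKP3. PKP1 was at 1.49 (FDR = 0.137) with sample totals thinned to the smallest. The summed fibroblast markers were higher with treatment in SCC6, as in the other lines. Treated SCC6 cells had a median depth of 24079 UMIs in replicate 1 against 50156 in replicate 2. The part of these markers and of depth in the SCC6 values was not tested. Thinning every cell to 15000 UMIs left DSP at 0.83 and DSC2 at 0.84.

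**Figure D4:**
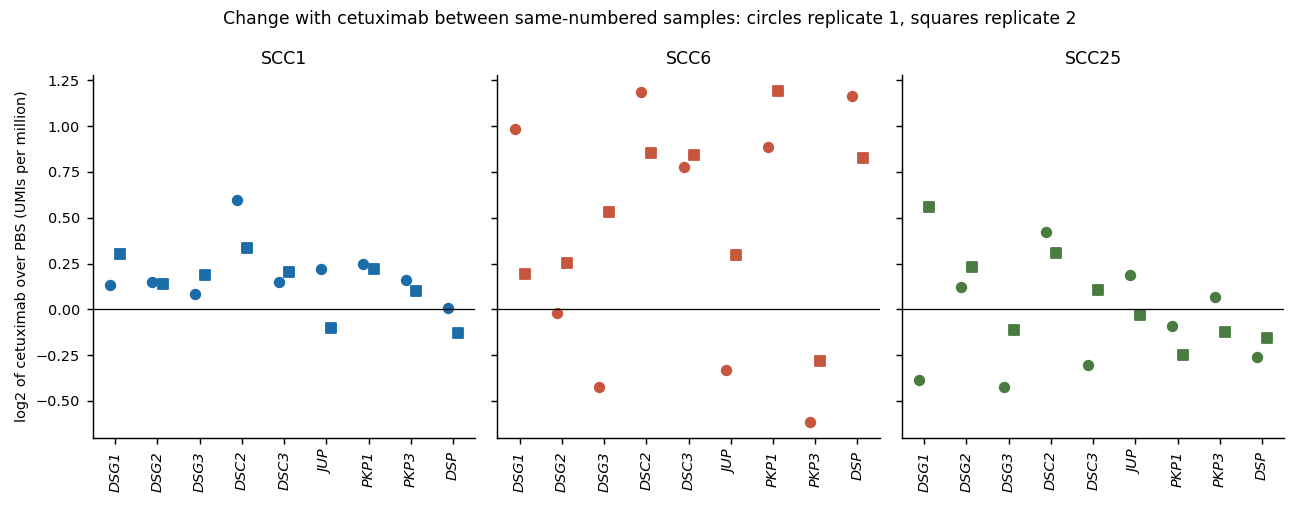
Log2 of cetuximab over PBS (CPM) between same-numbered samples for 9 desmosome genes in SCC1, SCC6 and SCC25, with circles for replicate 1 and squares for replicate 2. In SCC6 both points of DSC2, DSC3, DSP and PKP1 lie above 0.7 and both of PKP3 below 0, and in SCC1 all points lie between -0.2 and 0.6.

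In SCC1 no member passed with or without the block, on backgrounds of 4.45% and 0.0168% of genes. The number with an unadjusted p under 0.05 was 0 without the block and 1, DSC2, with it, in SCC1 as in SCC25. DSC2 was the furthest from 0, at 0.45 ± 0.36 (FDR = 0.849), or 0.42 ± 0.14 (FDR = 0.152) with the block. DSP was at -0.10 ± 0.31, with a 95% interval of -0.79 to 0.60. In SCC25 no member passed either, on backgrounds of 0.978% with the block and 0.0% without. DSC2 was at 0.35 ± 0.36, DSG3 at -0.29 ± 0.23 and DSP at -0.24 ± 0.31 (FDR = 1 each). The interval of DSP was -0.93 to 0.46 in SCC25 and 0.095 to 1.49 in SCC6.

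Across the lines DSC2 was at 0.54 ± 0.20 (FDR = 0.145), the other 8 members lay between -0.21 and 0.19, and no member passed, on a background of 3.67%. With the block DSC2 was the 1 member that passed, at 0.51 ± 0.10 (FDR = 0.0203), on a background of 11.6%. In the test of whether the change differed between lines, no member passed or had an unadjusted p under 0.05, on a background of 0.0%. With the block the background was 1.29%, 4 members had an unadjusted p under 0.05, none passed, and DSP had the smallest value among the members (FDR = 0.0532), followed by PKP3 (FDR = 0.175) and DSC3 (FDR = 0.182). An unequal response of the lines was therefore not shown for any member.

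The other components of the desmosome and further gene lists were counted in the same fits. Without the block 0.0168% of all genes passed in SCC1, 3.81% in SCC6, 0.0% in SCC25, 3.67% across the lines and 0.0% between lines. With the block these backgrounds were 4.45%, 20.1%, 0.978%, 11.6% and 1.29% in the same order. Of 7 genes (DSG4, PKP2, PKP4, PERP, CDSN, PPL and EVPL), 6 were tested and none passed in a cetuximab comparison without the block. With the block 1 passed, PKP2 in SCC6, at 0.65 ± 0.12 (FDR = 0.0101), where it was at 47.2 and 30.7 CPM with PBS and 86.9 and 56.3 CPM with cetuximab. PERP, a tetraspan protein of desmosomes and a TP63 target, was at 595 and 585 CPM in untreated and 778 and 817 CPM in treated SCC6, a log2 change of 0.20 ± 0.26 (FDR = 0.721). In SCC1 PERP was at 621 and 701 CPM with PBS and 986 and 945 CPM with cetuximab. In SCC25 it was at 572 and 940 CPM with PBS and 755 and 954 CPM with cetuximab.

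Of 15 keratins that desmoplakin can anchor, 1 passed higher and 1 lower in SCC6 without the block. KRT17, a keratin of basal and wounded epithelium, rose from 770 and 440 CPM to 2006 and 2449 CPM, by 1.64 ± 0.39 (FDR = 0.0463). KRT6A, a wound keratin, fell from 19.99 and 15.7 CPM to 2.92 and 4.01 CPM, a log2 change of -2.60 ± 0.27 (FDR = 0.00373). Across the lines KRT17 rose by 1.25 ± 0.22 (FDR = 0.0149). No keratin of the list passed in SCC1 or SCC25. With the block 4 passed higher and 4 lower in SCC6 (background 20.1%), 3 higher in SCC1 (4.45%) and 3 lower in SCC25 (0.978%). Across the lines 1 passed higher and 2 lower (background 11.6%), and the change of 6 of 15 differed between lines (1.29%).

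Of 10 genes that regulate desmosomes, 1 passed. KLF5, a zinc-finger factor of proliferating epithelium, fell in SCC6 from 78.5 and 51.7 CPM to 30.3 and 28.9 CPM, a log2 change of -1.38 ± 0.33 (FDR = 0.0474). With the block TP63 passed higher (0.74 ± 0.15, FDR = 0.0134) and KLF5 and GRHL1 lower in SCC6, where GRHL1, a grainyhead factor that activates desmosomal cadherin genes, was at -1.10 ± 0.24 (FDR = 0.0158). GRHL1 was low, at 5.15 and 3.77 CPM in untreated and 2.42 and 2.40 CPM in treated SCC6. Of 10 proteases that cleave desmosomal cadherins, 1 passed, KLK13, a kallikrein, at -1.60 ± 0.36 across the lines (FDR = 0.0338). KLK13 was at no more than 1.05 CPM in any sample. With the block 2 of the proteases passed across the lines (background 11.6%) and 2 in SCC6 (20.1%), all lower. The list did not fall as a whole in SCC6, where its median log2 change was 0.028, or 0.045 with the block. KLK5, another kallikrein, did not pass there but was at 26.0 and 32.3 CPM in untreated and 84.4 and 87.7 CPM in treated SCC6.

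Of 10 adherens junction genes, CDH2, the mesenchymal N-cadherin, was the 1 that passed, at 1.59 ± 0.31 across the lines (FDR = 0.0188). Within SCC6 it went from 8.41 and 12.8 CPM to 53.4 and 54.1 CPM, which missed the threshold (2.12 ± 0.52, FDR = 0.0521). With the block CDH2 passed as higher in each line and across the lines, and in SCC6 CTNNB1 passed higher and NECTIN1 lower. None of the 9 hemidesmosome genes passed without the block. With it 1 passed higher in SCC1 (background 4.45%), 1 in SCC6 (20.1%) and 4 across the lines (11.6%). Of 12 suprabasal differentiation genes tested, TGM1, the transglutaminase of the cornified envelope, passed in SCC6 at 2.11 ± 0.50 (FDR = 0.0457), from 0.658 and 0.671 CPM to 2.35 and 4.34 CPM. With the block 2 passed higher and 1 lower in SCC6, 1 higher in SCC1, 2 lower in SCC25 and 1 lower across the lines, and the change of 2 differed between lines.

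To see whether desmosome genes were used by the same cells, the cells with a DSG3 UMI were compared with the cells without in each SCC1 and SCC25 sample, after thinning. This comparison was chosen after the data were seen, in place of the same comparison for DSG1, which had 0 to 8 positive cells per sample. Each of the 8 samples held 171 to 815 DSG3-positive and 767 to 1688 DSG3-negative cells. All 7 other members with enough UMIs to be tested were higher in DSG3-positive cells in 8 of 8 samples. DSC2 was higher by 0.65 ± 0.31 (mean log2 ratio ± SD over 8 samples), DSC3 by 0.55 ± 0.14, DSP by 0.55 ± 0.24 and PKP1 by 0.52 ± 0.13. JUP was higher by 0.24 ± 0.072, DSG2 by 0.18 ± 0.092 and PKP3 by 0.098 ± 0.063.

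An exact sign-flip permutation test over the 8 samples gave each of them p = 0.0078, the smallest that 256 arrangements allow, and p = 0.046 after adjustment over 9757 genes. In the same test 17.0% of genes passed and 8.65% passed as higher in DSG3-positive cells, against 7 of 7 members. With so few possible p-values the adjusted value depends on how many genes reach the smallest one: 1525 were needed and 1656 did. The 8 samples are 2 lines with 4 samples each and share their treatments, so they do not stand for 8 independent cultures. Without thinning no gene of 11579 passed (smallest adjusted p = 0.0806), since 1122 reached the smallest p, and 6 of the 7 members had an unadjusted p under 0.05. The 7 means were then between 0.041 and 0.47, and DSC2, DSG2 and PKP3 were lower in DSG3-positive cells in 1 or 2 of 8 samples.

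**Figure D5:**
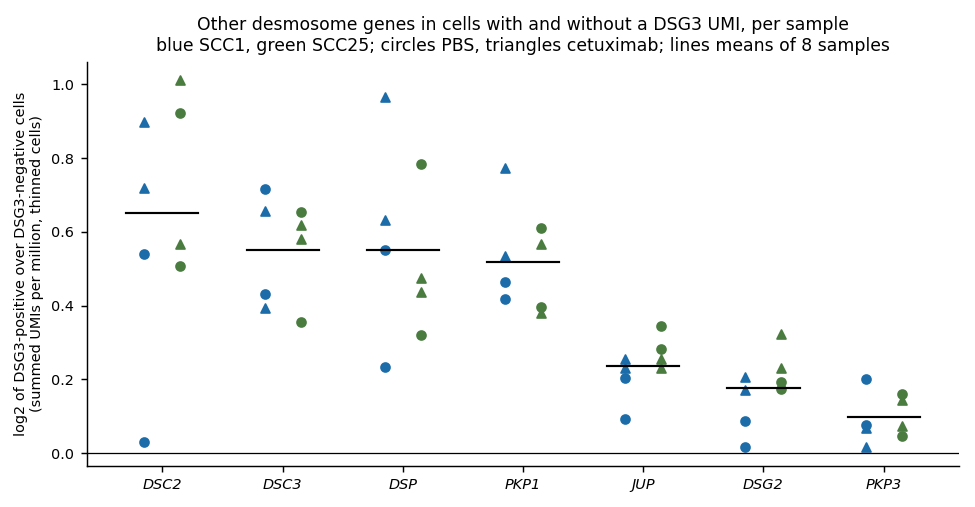
Log2 ratio of CPM in DSG3-positive over DSG3-negative cells for 7 desmosome genes in each of 4 SCC1 and 4 SCC25 samples after thinning, with circles for PBS, triangles for cetuximab and lines for means of 8 samples. All 56 points lie above 0, from 0.016 to 1.01.

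Other listed genes differed between these cells too. Of 11 keratins tested, 7 were higher, led by KRT6A at 1.17 ± 0.72, KRT16 at 0.84 ± 0.47 and KRT15 at 0.70 ± 0.11, and 2, the simple epithelial keratins KRT8 at -0.17 ± 0.11 and KRT18 at -0.29 ± 0.086, were lower. KRT19, also a keratin of simple epithelia, was among the 7 higher ones, at 0.10 ± 0.065. Of 8 regulators, 4 were higher, among them GRHL1 at 0.58 ± 0.22 and TP63, the master factor of squamous basal cells, at 0.41 ± 0.18. Of 9 hemidesmosome genes 4 were higher and of 10 adherens junction genes 5, with none lower in either list. EPCAM, a surface protein of simple epithelia and carcinomas, was lower in 8 of 8 samples, at -0.26 ± 0.10. Before thinning, DSG3-positive cells had fewer UMIs than DSG3-negative cells in 8 of 8 samples, with medians of 32323 to 49740 against 32912 to 57570, and a higher median mitochondrial share in 8 of 8 samples. The part of depth and mitochondrial share in these ratios was not tested beyond thinning to an equal depth.

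To find genes whose levels moved like the most variable members, log2 CPM values were centred within each line and genes with a mean of at least 10 CPM were ranked by the root mean square (RMS) difference over the 12 samples. DSC2, DSG1 and PKP3 had the largest SD of these values (0.42, 0.41 and 0.41). Nearest to DSC2 were FNBP1L (RMS 0.11), CREB3L2 (0.12) and IGF1R (0.12). Nearest to PKP3 were KAT5 (0.060), NFS1 (0.063) and EXOSC10 (0.074). For DSG1, which rests on at most 24 UMIs per sample, the nearest genes, AIF1L, H2AFY2 and FAM20C, were no closer than 0.28. All 12 samples share the shift between replicate numbers, which enters these differences.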

How the data were processed

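The deposited files were 1 matrix per line of raw UMI counts per gene and cell, which the authors made with Cell Ranger on GRCh38 per the labels (version not given) from Chromium 3′ v2 libraries. Cells were pre-processed with Monocle, per the study's methods. The 33538 rows carry 33514 symbols, and rows with a shared symbol were added. All 23914 deposited cells were used, no doublet caller was run, and 0 columns of per-sample values were unused. Groups came from the sample labels. Whether replicates are separate cultures is not clear, since the methods speak of sequencing in duplicate, so p-values may measure technical spread only.

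UMI counts were summed per sample and tested with edgeR 4.0.16 (R 4.3.3, TMM, filterByExpr, quasi-likelihood F-test, 1 fit of 6 group means, FDR over 17897 genes). DESeq2 1.42.0 served as an alternative. Totals were 57057402 UMIs or more in each sample, so counting error is small beside replicate spread except for the rare members. Same-numbered samples deviated together in each line (r = 0.667, 0.625 and 0.720 over 7558 genes), so the numbers were taken to pair the samples and a fit with the replicate number as a block within each line is given where it changes a call. The pairing comes from the data, and the labels give only the number.

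Cells were thinned without replacement to 15000 UMIs for shares and for DSG3-positive cells, where genes needed 50 UMIs in each sample and 50 cells in each class. Permutation tests enumerated all arrangements with numpy 2.4.6, and binomial intervals used scipy 1.17.1. The scripts were tested on simulated data. Gene positions and windows are from RefSeq tables of GRCh38.p14. The members and gene lists were chosen with earlier results of these data known. All 10 members are named. From each other list, genes called without the block in a cetuximab comparison are named, at most the 4 of largest change, or at most the 2 of smallest p where none was called, and for the 3 members of largest SD the 3 genes with the smallest RMS difference. KRT16, KRT15, KRT8, KRT18, KRT19, TP63, EPCAM, CTNNB1, NECTIN1, CD14, KLK5, and GRHL1 with the block, fall outside this rule and were chosen after their values were seen. The DSG3-positive comparison and its settings were chosen after seeing the data.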

Additional observations from a re-analysis of the deposited data

Results flagged for a closer look

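PKP1 was higher with cetuximab in both SCC6 pairs, by 0.89 and 1.19 on the log2 CPM scale, and lower in both SCC25 pairs, at -0.09 and -0.25. It is listed here because all samples of these lines moved in opposite directions. The edgeR test of the difference between the 3 lines did not pass (FDR = 0.864, or 0.252 with the replicate block), and the SCC6 values rest on 6 to 14 UMIs per sample.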

How the results depend on the processing

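Alternatives were DESeq2 and its size factors, no low-count filter, only the lines compared, totals or cells thinned, cells with most UMIs or over 20% mitochondrial UMIs left out, and each sample left out in turn. In each of these 0 members were called with cetuximab, in any line, across the lines or between lines. In the fit without block 0.0168% of all genes passed in SCC1, 3.81% in SCC6, 3.67% across the lines, and 0.0% in SCC25 and between lines. With the replicate block 4 of 9 members were called in SCC6 (background 20.1%) and 1 across the lines (background 11.6%). A fit with the same replicate term for all lines gave 3 in SCC6 (background 13.8%) and 1 across the lines (background 11.6%). It gave 5 in untreated SCC6 against SCC25 in place of 3. There the background was 54.4% in place of 40.9%, so that the share of members stayed near that of all genes. The shared term also called DSC2 in untreated SCC1 against SCC6 (background 53.8%). The block within lines, which was fitted for the cetuximab comparisons, changed no other call of a member there. DSG2 in untreated SCC6 against SCC25 was gained with DESeq2 and with no low-count filter. Its log2 difference there was -1.51 without SCC6 PBS replicate 1 and -0.54 without replicate 2. For untreated SCC1 against SCC25, the calls of DSG2 and DSC3 depended on single samples, as given above. Without thinning, 0 members were called in DSG3-positive cells, as were 0 of all 11579 genes tested. Of 1018 single fold changes under the alternatives, 63 changed sign, for 26 of 63 results, none of them called and the largest at 0.70 (DSG1). A split by DSG1 was not run for lack of cells, nor one by 2 or more DSG3 UMIs. Depth limits DSG1 and DSC1 in all lines and DSG3 and PKP1 in SCC6.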
